A study of Mus musculus with 18 samples.

Results

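Snai2, Zeb2 and Twist1, 3 transcription factor genes of the mesenchymal state, were followed through the reprogramming of mouse embryonic fibroblasts (MEFs). The members were all probe sets under these 3 symbols in the authors' list of transcripts that were at least 10-fold below the MEF mean in each of the 15 other arrays. This gave 4 probe sets of 3 genes, out of 904 probe sets of 687 genes to which the deposited lists give a single symbol. A probe set is a group of short probes that reads 1 transcript. Snai2 had 2 (1418673_at and 1447643_x_at), Zeb2 had 1 (1422748_at) and Twist1 had 1 (1418733_at). The suffix _x_at is Affymetrix's mark for a probe set in which some probes also match other sequences.

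Expression was measured on Affymetrix mouse arrays in 18 samples, which were 3 of MEFs, 3 of mouse embryonic stem cell (mESC) clones and 4 clones in each of 3 groups of induced pluripotent stem cells (iPSCs). The labels give all 18 samples, mESCs included, the strains B6.Cg-Gt (ROSA) 26Sortm1 with the allele (rtTA*M2) Jae/J, a doxycycline-dependent transactivator at the Rosa26 locus, and B6.129S4-POU5f1tm2Jae/J, a reporter at the gene of Oct4. MEFs were taken from embryos at E13.5, used at low passage and transfected with PiggyBac vectors. The OE + EpEX group received Oct4 and the surface protein EpCAM and was treated with EpEX, the extracellular part of EpCAM. The KE + EpEX group received Klf4 and EpCAM with the same treatment, and the OSKM group received Oct4, Sox2, Klf4 and c-Myc. Doxycycline at 1.5 µg/mL was added after 24 h to induce the transgenes and was kept for 21 days, on feeder cells. The labels number the 3 MEF samples as biological replicates whereas the series' design text speaks of 1 primary culture, so p-values may measure technical spread where MEFs enter a fit. In these bulk samples fewer cells of a type and less RNA per cell cannot be told apart.

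Snai2 encodes Slug, a zinc finger repressor of the Snail family, and Zeb2 encodes a zinc finger and homeodomain repressor. Both proteins bind E-boxes in genes of epithelial adhesion such as Cdh1, and both act in the neural crest and in the epithelial-to-mesenchymal transition. Twist1 is a basic helix-loop-helix factor of the embryonic mesenchyme. Reprogramming of fibroblasts passes through the opposite transition, in which mesenchymal regulators are silenced and epithelial genes such as Cdh1 and Epcam are switched on.

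The sequences just before the transcription start of Twist1 and of the outermost of 4 Zeb2 starts are shown because both genes were lower in every pluripotent array than in MEFs. They were taken from RefSeq on GRCm38.p6, 250 bases each, written 5′ to 3′ on the gene's strand with CG dinucleotides in capitals. The windows are chr12:33957421-33957670 on the plus strand for Twist1 and chr2:45117443-45117692 on the minus strand for Zeb2.
Twist1: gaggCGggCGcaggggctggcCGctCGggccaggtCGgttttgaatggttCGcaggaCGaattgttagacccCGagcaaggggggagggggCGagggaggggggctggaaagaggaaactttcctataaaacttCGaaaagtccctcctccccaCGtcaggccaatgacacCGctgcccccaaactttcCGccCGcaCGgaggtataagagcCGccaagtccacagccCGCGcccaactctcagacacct
Zeb2: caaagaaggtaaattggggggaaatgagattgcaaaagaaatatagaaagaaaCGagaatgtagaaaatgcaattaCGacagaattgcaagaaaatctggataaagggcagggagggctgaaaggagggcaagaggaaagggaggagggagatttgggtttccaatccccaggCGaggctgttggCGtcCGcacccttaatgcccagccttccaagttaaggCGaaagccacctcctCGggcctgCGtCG
The Twist1 window held 18 CG dinucleotides, a number reached by 21.7% of 32851 mouse windows of the same length, and the Zeb2 window held 9, reached by 40.3%. The median window held 6. The E-box CANNTG, which reads the same on both strands, was searched in these windows and in the other 3 Zeb2 windows and was found in 0 of the 5, of which 2 Zeb2 windows overlap over most of their length. Its letters occurred in 66.2% of all windows, and CACCTG or its reverse complement CAGGTG, which are among the CANNTG words, in 17.2%.

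All values are log2 values in which the authors had set the median of each probe set over the arrays to 0. They are relative values of 1 probe set across arrays and show neither a transcript's level nor whether it was detected. Marker genes are given as a description of the groups. All markers named here are in the authors' lists, which were made from the contrast with MEFs. Their split between MEFs and the other arrays was therefore fixed by that choice and checks no label. Markers outside the lists could not be named. Pluripotency markers (14 of 15 genes named, 16 probe sets) averaged from −7.46 to −7.33 in the MEFs and from −0.07 to 0.55 in the other arrays. Fibroblast markers (13 of 24 genes named, 17 probe sets) averaged from 4.88 to 6.41 in the MEFs and from −0.94 to 1.57 in the others. Of the markers of neural crest and mesoderm 0 of 12 were named in the lists, and of primitive endoderm 1 of 5, Pdgfra, so other cell types that use these regulators were not analysed here.

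Snai2 was far higher in MEFs than in any pluripotent array. The probe set 1418673_at stood at 3.51, 5.81 and 6.07 in MEF samples 1, 2 and 3. It stood at −0.19, −0.40 and −0.06 in the mESC clones, and at 0.19, −0.01, −0.21 and 0.42 in the OE + EpEX clones. The KE + EpEX clones had 0.39, 0.21, 0.06 and −0.17, and the OSKM clones 0.01, −0.17, −0.40 and −0.13. The lowest MEF sample thus lay 8.49-fold above the highest other array, OE + EpEX clone 4, and the 15 pluripotent arrays spanned only 0.83 log2 units.

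The other Snai2 probe set, 1447643_x_at, gave the widest values. In the MEFs it was 4.31, 7.01 and 7.02, and in the mESC clones −0.52, −0.39 and −1.06. The OE + EpEX clones had 0.53, 0.18, −0.05 and 1.05, the KE + EpEX clones 1.18, 0.48, −0.55 and −0.06, and the OSKM clones 0.05, −0.56, −0.25 and −0.24. The mESC clones were the lowest group, and KE + EpEX clone 1 and OE + EpEX clone 4 were the highest pluripotent arrays. The spread over the 15 arrays was 0.62 (SD), against 0.25 for 1418673_at, and 96.6% of all probe sets on the array had a lower SD. The 2 Snai2 probe sets correlated with r = 0.75 across these 15 arrays, a description over arrays that share groups.

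Zeb2 was also high in MEFs and low elsewhere. It read 4.60, 5.43 and 4.52 in the MEF samples and 0.58, −0.15 and 0.16 in the mESC clones. In the OE + EpEX clones it was −0.30, −0.54, −0.23 and −0.03, in the KE + EpEX clones 0.53, 0.03, −0.79 and 0.46, and in the OSKM clones −0.14, −0.35, −0.21 and 0.17. All 4 OE + EpEX clones lay below 0, while the 4 KE + EpEX clones covered nearly the whole pluripotent range, from −0.79 to 0.53. The highest pluripotent array for Zeb2 was an mESC clone, not an iPSC clone.

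Twist1 read 3.39, 5.61 and 5.50 in the MEF samples. The mESC clones had 0.41, −0.48 and 0.45, so that a single mESC clone lay apart from the others, and all 15 pluripotent arrays spanned 1.28 log2 units. The OE + EpEX clones had 0.22, −0.13, 0.00 and 0.69, the KE + EpEX clones 0.16, −0.60, −0.39 and −0.45, and the OSKM clones −0.36, −0.51, 0.00 and −0.05. OE + EpEX clone 4 was the highest pluripotent array for Twist1, as it was for Snai2 1418673_at.

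**Figure D1:**
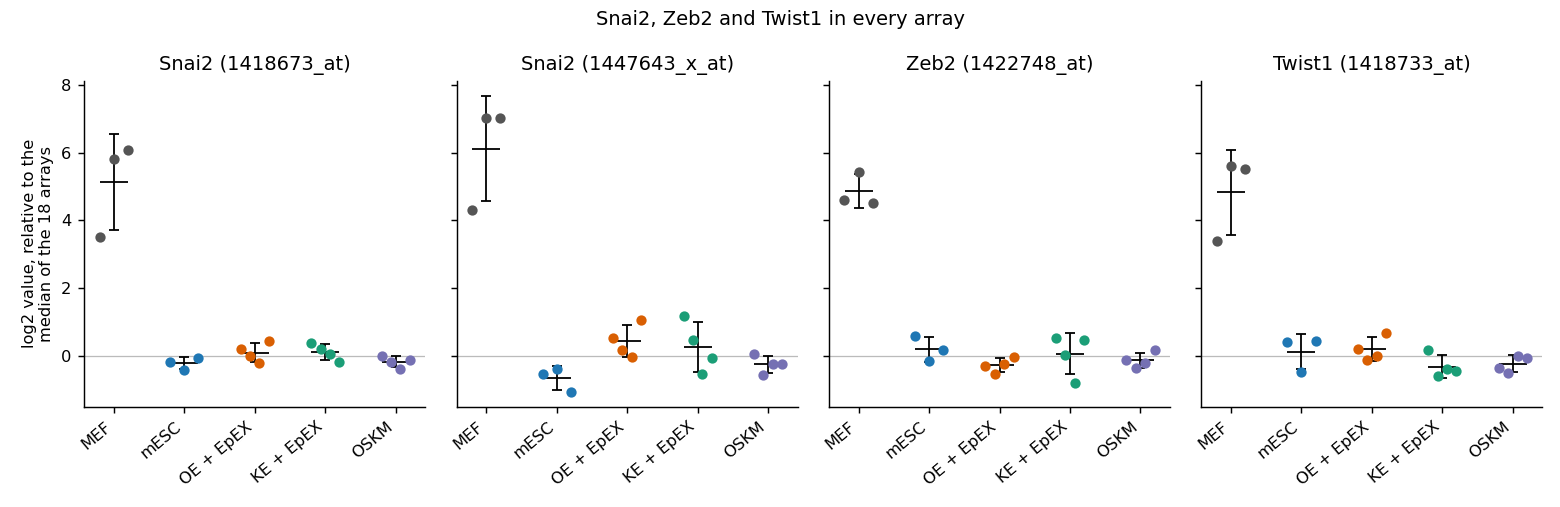
Each point is 1 array, with its log2 value relative to the probe set's median over 18 arrays on the y axis and the 5 groups on the x axis, 1 panel per probe set, and bars give the group mean and SD (n = 3 for MEF and mESC, n = 4 for the others). The MEF samples lie between 3.39 and 7.02 and all other arrays between −1.06 and 1.18, and in both Snai2 panels and the Twist1 panel 1 MEF sample lies well below the other MEF samples.

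The size of the fall from MEFs is a description, since the list was made from this contrast, and no test is given. On the log scale the group means were lower than the MEF mean by 32.2-fold (KE + EpEX) to 40.7-fold (mESC) for Snai2 1418673_at and by 51.5-fold (OE + EpEX) to 109-fold (mESC) for 1447643_x_at. For Zeb2 the range was 25.2-fold (mESC) to 34.9-fold (OE + EpEX), and for Twist1 25.0-fold (OE + EpEX) to 35.6-fold (KE + EpEX). The order of the pluripotent groups therefore differed from gene to gene, and mESCs were the lowest group for Snai2 and the highest for Zeb2, though among these groups 0 of the 4 probe sets were called in any of the 6 comparisons with all 18 arrays in the fit, and 1 was called in 1 comparison without the MEFs. The median log2 difference of the 4 probe sets was −5.03 in mESCs and −5.19 in OSKM clones, and it was −5.08 for both EpEX groups. With arrays centred on their medians it was −5.06 in mESCs, −5.20 in OSKM, −5.08 in OE + EpEX and −5.09 in KE + EpEX. After quantile normalization it was −1.72 in mESCs, −2.07 in OSKM, −1.49 in OE + EpEX and −1.62 in KE + EpEX, lower than in the MEFs but by far less. Quantile normalization forces 1 common distribution on arrays whose values are already relative to each probe set's median.

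Single arrays fell in the same range. The smallest distance of any pluripotent array from the MEF mean was 26.1-fold for Snai2 1418673_at and 17.7-fold for Twist1, both in OE + EpEX clone 4. It was 30.6-fold in KE + EpEX clone 1 for Snai2 1447643_x_at and 19.3-fold in mESC clone 1 for Zeb2. Across the 471 probe sets of the list the median of this smallest distance was 15.8-fold. Just inside the threshold of 10-fold lay Twist2, the paralogue of Twist1, at 10.03-fold, and the nearest probe set outside it stood at 9.997-fold.

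The 3 MEF samples did not agree for Snai2 and Twist1. Against the mean of MEF samples 2 and 3, MEF sample 1 was 5.40-fold and 6.50-fold lower for the 2 Snai2 probe sets and 4.50-fold lower for Twist1. For Zeb2 it was 1.29-fold lower and lay between the other MEF samples. Twist2 ran the other way, at 4.73 in MEF sample 1 and at 3.19 and 3.33 in samples 2 and 3, a difference of 2.78-fold. Of the 471 probe sets in the list, 412 were lowest in MEF sample 1 among the MEFs and 47 were highest there, with a median log2 difference of −1.84 and the middle 80% from −5.10 to 0.09. Twist2 lay above 97.5% of the list on this measure. The fibroblast marker mean was 4.88 in MEF sample 1 against 6.31 and 6.41, and its part in these values was not tested.

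The choice of MEF sample set the size of the fall for 3 of the 4 probe sets. Against MEF sample 1 alone mESCs were 13.2-fold lower for Snai2 1418673_at, and against samples 2 and 3 they were 71.5-fold lower. For Snai2 1447643_x_at the same values were 31.4-fold and 204-fold, and for Twist1 9.59-fold and 43.2-fold. For Zeb2 they were close, at 21.2-fold and 27.4-fold.

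**Figure D2:**
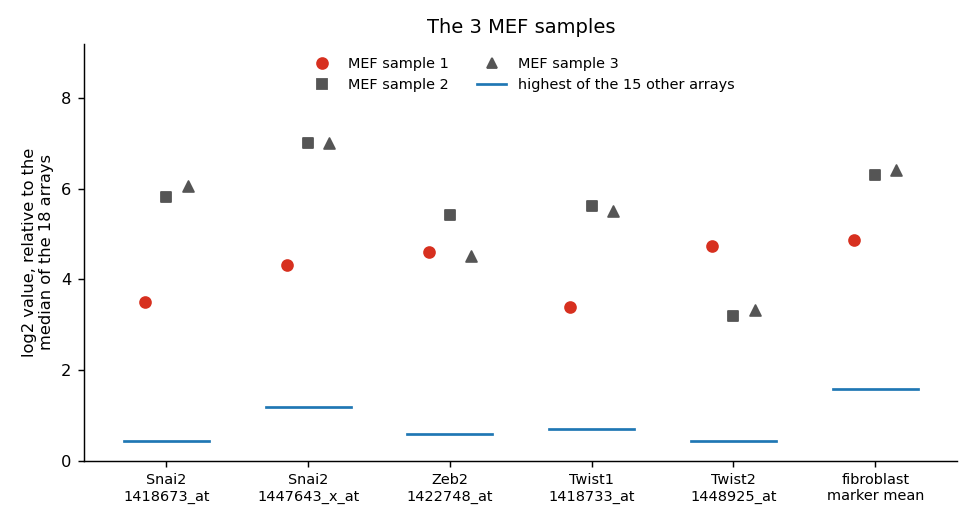
The y axis gives the log2 value relative to the median of the 18 arrays in each MEF sample (1 marker shape per sample) for the 4 member probe sets, Twist2 and the mean of 17 fibroblast marker probe sets, and blue lines mark the highest of the 15 other arrays. MEF sample 1 is the lowest for Snai2 and Twist1, lies between the others for Zeb2 at 4.60 and is the highest for Twist2 at 4.73.

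Whether iPSCs made with EpCAM and EpEX had the same residual signal as mESCs and as OSKM iPSCs was tested with limma over 45037 probe sets. A probe set counted as called at a Benjamini-Hochberg adjusted p under 0.05 together with a log2 difference of at least 1. With all 18 arrays in the fit, 0 of the 4 member probe sets were called in OE + EpEX against mESC, where 2.95% of all probe sets were called. The count was also 0 of 4 in KE + EpEX against mESC (3.45% of all called), in OSKM against mESC (3.28%) and in OE + EpEX against OSKM (0.0444%). In KE + EpEX against OSKM and in OE + EpEX against KE + EpEX it was 0 of 4 beside 0.0% of all probe sets in each. At an unadjusted limma p under 0.05, before any fold threshold, 0 of the 4 members passed in any of the 6 comparisons, against 2446 to 10017 of all probe sets. The MEF samples widened the error of Snai2 and Twist1 in this fit, which limits what these counts of 0 can show. In OE + EpEX against mESC the SE of Snai2 1418673_at was 0.41 with the MEFs and 0.16 without them. For Twist1 it was 0.41 and 0.24. With only the 15 pluripotent arrays in the fit 5 of the 24 member tests had an unadjusted p under 0.05, against 8.27% to 27.9% of all probe sets per comparison. They were Snai2 1447643_x_at in both EpEX groups against mESC and in OE + EpEX against OSKM, Snai2 1418673_at in KE + EpEX against mESC and Twist1 in OE + EpEX against KE + EpEX. The methods' t-test, with no fold threshold, called 0 members in all 6 comparisons after adjustment. Over all probe sets it passed 4.16%, 4.47% and 19.0% in OE + EpEX, KE + EpEX and OSKM against mESC. It passed 0.855% in OE + EpEX against OSKM, 0.00444% in KE + EpEX against OSKM and 0.0% in OE + EpEX against KE + EpEX. Before adjustment it called 1447643_x_at in OE + EpEX against mESC (22.6% of all probe sets called) and against OSKM (18.3%).

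The largest member difference was that of Snai2 1447643_x_at in OE + EpEX against mESC. Its 4 OE + EpEX clones, from −0.05 to 1.05, lay above its 3 mESC clones, from −1.06 to −0.39, whereas in the other 23 member comparisons the groups overlapped. Over the whole array 24.2% of probe sets had groups that did not overlap between OE + EpEX and mESC, so such a separation was common. This share was 21.6% in KE + EpEX and 31.3% in OSKM against mESC. Against OSKM it was 14.0% in OE + EpEX and 7.34% in KE + EpEX, and between the EpEX groups 3.63%. The log2 difference of Snai2 1447643_x_at in OE + EpEX against mESC was 1.08 ± 0.53 (SE, n = 4 and 3). Its 95% interval ran from −0.04 to 2.21, with a limma adjusted p of 0.256. The 3 MEF samples feed the spread of this fit. With only the 15 pluripotent arrays in the fit, the SE was 0.33, the interval ran from 0.37 to 1.79 and the limma adjusted p was 0.0411, so the difference was called in a fit that called 3.43% of all probe sets. Without MEF sample 1 the adjusted p was 0.0313, and with only the compared groups it was 0.0272. The call was not stable to single arrays either. Of 15 fits that each left out 1 pluripotent array, 5 called it and 10 did not, with adjusted p from 0.0135 to 0.183, the highest without mESC clone 3.

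The other Snai2 probe set did not show a difference of this size. For 1418673_at the log2 difference in OE + EpEX against mESC was 0.31 ± 0.41 (SE) with all arrays, with a 95% interval from −0.55 to 1.18, and the interval was −0.02 to 0.65 with the 15 arrays (limma adjusted p = 0.213). In KE + EpEX against mESC the 2 probe sets gave 0.34 (interval −0.53 to 1.21) and 0.92 (−0.21 to 2.04). With the 15 arrays these intervals were 0.0042 to 0.67 and 0.21 to 1.63, both above 0, with limma adjusted p of 0.176 and 0.0759. In OSKM against mESC they gave 0.04 (−0.82 to 0.91) and 0.41 (−0.72 to 1.53).

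Zeb2 leaned the other way where OE + EpEX was concerned, within the error. Its log2 difference in OE + EpEX against mESC was −0.47 ± 0.29 (SE), with a 95% interval from −1.08 to 0.13 (limma adjusted p = 0.378). In KE + EpEX against mESC it was −0.14, with an interval from −0.74 to 0.47, and in OSKM against mESC −0.33 (−0.94 to 0.28). These intervals leave room for a difference of up to about 1 log2 unit below mESCs and less than 0.5 above.

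For Twist1 the differences from mESC were 0.07 (95% interval −0.81 to 0.94) in OE + EpEX, −0.45 (−1.32 to 0.43) in KE + EpEX and −0.36 (−1.23 to 0.52) in OSKM. Between the EpEX groups Twist1 was 0.51 higher in OE + EpEX than in KE + EpEX, with an interval from −0.30 to 1.32 and a limma adjusted p of 0.960. With the 15 arrays the interval was 0.030 to 1.00 and the limma adjusted p 0.583. The widest member difference against OSKM was that of Snai2 1447643_x_at in OE + EpEX, at 0.68 (−0.36 to 1.72). The median difference of the 4 member probe sets lay between −0.14 and 0.35 over the 6 comparisons, and that of all probe sets between −0.05 and 0.00.

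**Figure D3:**
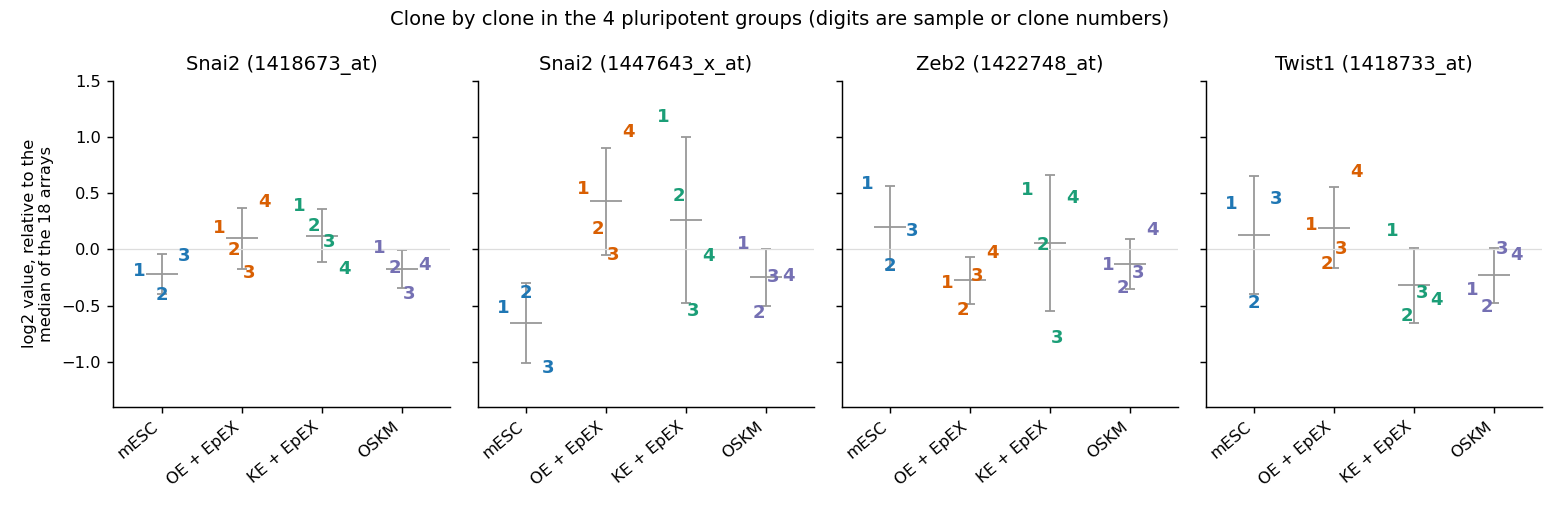
Log2 value relative to the median of the 18 arrays (y axis) for every mESC sample and iPSC clone, drawn as its number and coloured by group, with grey bars for the group mean and SD, 1 panel per probe set. For Snai2 1447643_x_at and Zeb2 the KE + EpEX clones spread most, from −0.55 to 1.18 and from −0.79 to 0.53, while the OSKM clones of Snai2 1447643_x_at lie between −0.56 and 0.05.

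**Figure D4:**
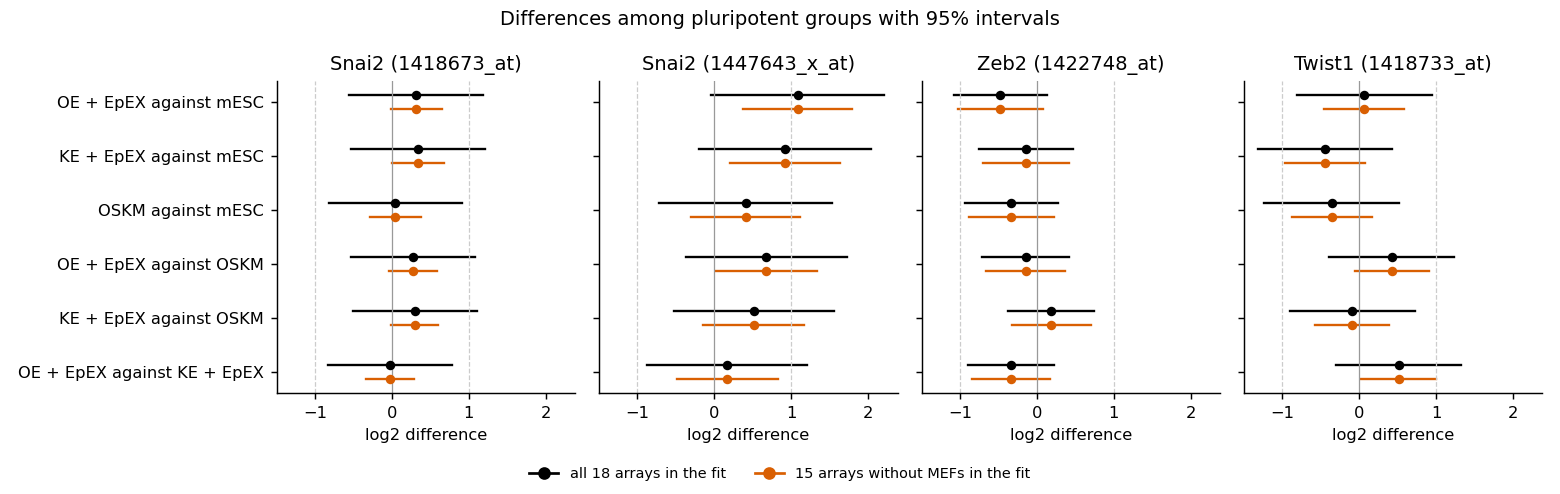
The x axis gives the log2 difference between the groups named on the y axis for each member probe set, with 95% intervals from limma, in black with all 18 arrays in the fit and in orange with the 15 arrays without MEFs, and dashed lines mark a difference of 1 in either direction. The intervals are narrower without the MEFs, and for Snai2 1447643_x_at in OE + EpEX against mESC the interval moves from −0.04 to 2.21 to 0.37 to 1.79.

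Among the pluripotent arrays the Snai2 values were compared with those of fibroblast marker genes. The iPSCs were grown on feeder cells, and the mean of the 17 fibroblast marker probe sets was highest in KE + EpEX clone 1 (1.57), OE + EpEX clone 4 (0.97) and KE + EpEX clone 2 (0.65). These 3 clones were picked by this mean, so high values of the markers in them follow largely from the choice. In each of these 3 clones 17 of 17 fibroblast marker probe sets were above the median of the 9 other iPSC clones, and 16, 14 and 12 were above all 9. These markers come from the same list as the members but hold none of them. Of the 4 member probe sets 4, 4 and 3 were above that median, and 3, 3 and 1 were above all 9. Members passed the same filter as these markers, and 2 of the 4 are probe sets of Snai2. The share of the whole list that stood as high in these clones was not computed. The member counts are therefore a description and no result about the members. In the other clones the marker mean was −0.03, −0.19 and 0.44 for OE + EpEX clones 1 to 3, −0.85 and −0.94 for KE + EpEX clones 3 and 4, from −0.33 to −0.10 in OSKM and from −0.61 to −0.45 in mESCs.

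Over the 15 arrays the correlation with the fibroblast marker mean was r = 0.82 for Snai2 1447643_x_at (permutation p = 0.00046, adjusted over the 4 probe sets 0.00184), with Spearman's rho of 0.78 (permutation p = 0.0011, adjusted 0.0044). For Snai2 1418673_at r was 0.70 (permutation p = 0.00542, adjusted 0.0108) and rho was 0.60 (permutation p = 0.0205, adjusted 0.041). For Twist1 r was 0.34 (permutation p = 0.218, adjusted 0.291) with rho 0.25 (permutation p = 0.371, adjusted 0.495), and for Zeb2 r was 0.23 (permutation p = 0.406, adjusted 0.406) with rho −0.01 (permutation p = 0.973, adjusted 0.973). These 4 relations were chosen after the values had been seen. Members and markers passed the same filter for transcripts high in MEFs. The share of other probe sets in that list with as high an r was not computed. These p-values therefore do not set the members apart from the rest of the list. Without KE + EpEX clone 1 and OE + EpEX clone 4, the arrays farthest from the median of the marker mean, r was 0.36 for 1418673_at (permutation p = 0.232, n = 13), so that relation rested on these arrays, and 0.57 for 1447643_x_at (permutation p = 0.0423, n = 13). These p-values exchange arrays across groups whose means differ in both measures. With group means removed and arrays permuted only within groups, r was 0.78 for 1447643_x_at (permutation p = 0.0365, adjusted 0.0747), 0.62 for 1418673_at (permutation p = 0.0373, adjusted 0.0747), 0.47 for Zeb2 (permutation p = 0.373, adjusted 0.373) and 0.45 for Twist1 (permutation p = 0.0804, adjusted 0.107), so within groups the relation passed for 0 of the 4 probe sets after adjustment. Whether feeder or other fibroblast RNA had a part in the Snai2 signal was not tested.

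Leaving out the 3 clones with the highest marker mean was tried after the values had been seen. The difference of Snai2 1447643_x_at in OE + EpEX against mESC became 0.88, under the fold threshold, so it was not called. Its limma adjusted p was 0.0147 in the fit without MEFs and 0.462 with them. In the fit without MEFs the SE was 0.21, against 0.33 with all 15 arrays, while the difference itself became smaller. In KE + EpEX against mESC the difference went from 0.92 to 0.35, and in KE + EpEX against OSKM from 0.51 to −0.05. OE + EpEX clones 1 to 3 and KE + EpEX clones 3 and 4 remained in these fits. The clones left out were picked by a mean that correlated with this probe set (r = 0.82 over the 15 arrays). KE + EpEX clone 1 and OE + EpEX clone 4 were also its highest pluripotent arrays. Smaller differences therefore follow largely from the choice and test no cause.

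**Figure D5:**
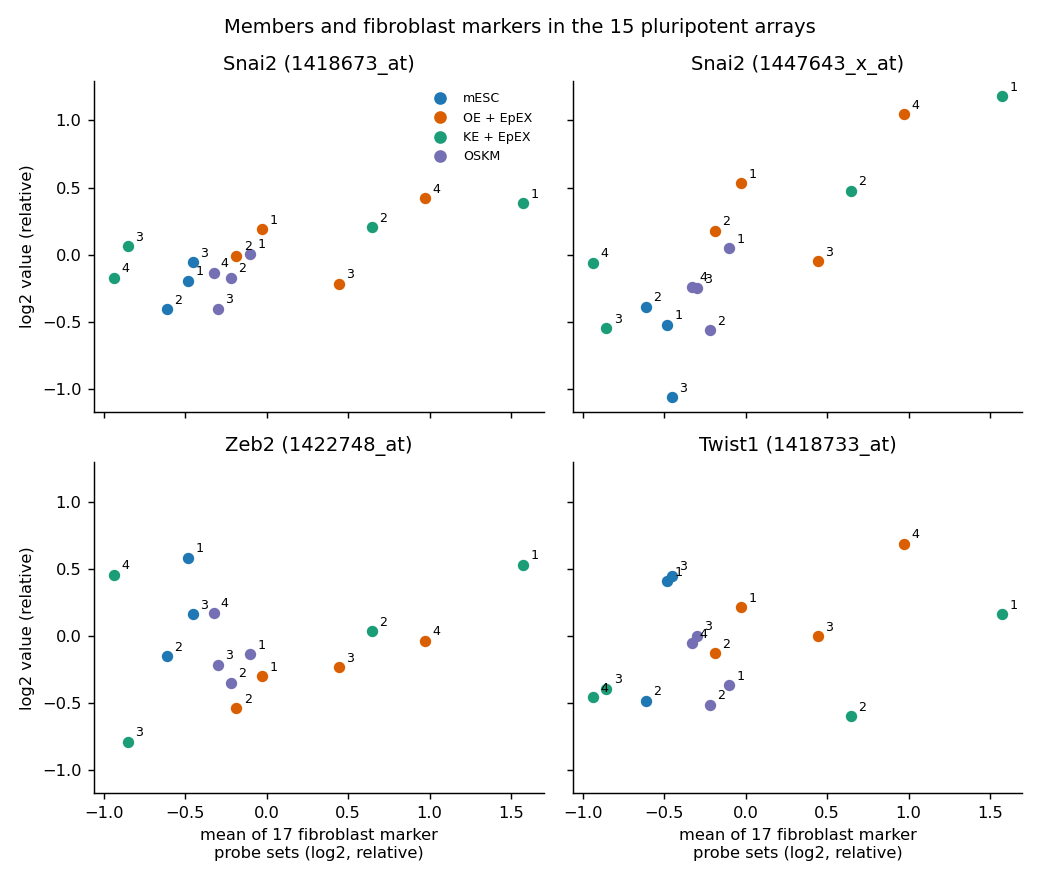
Each point is 1 of the 15 pluripotent arrays, numbered and coloured by group, with the mean of 17 fibroblast marker probe sets (log2, relative) on the x axis and the member's log2 value (relative) on the y axis, 1 panel per probe set. Both Snai2 panels climb towards KE + EpEX clone 1 at 1.57 and OE + EpEX clone 4 at 0.97 on the x axis, with r = 0.82 for 1447643_x_at, and the Zeb2 panel shows no such order.

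The members shared their profile with other genes of the list. By Pearson's correlation over the 18 arrays, a measure dominated by the step from MEFs, the 5 genes most like Snai2 1418673_at were Aebp1, Dclk1, Foxc1, Eya4 and Zfp503 (r from 0.996 to 0.998), and over the 15 pluripotent arrays their r ran from 0.68 to 0.83. For Snai2 1447643_x_at they were Scara3, Plxdc2, Arhgap24, Smpdl3a and Aebp1 (0.992 to 0.996 over 18 arrays, 0.84 to 0.91 over 15). Aebp1, which encodes an extracellular matrix protein, was thus near both Snai2 probe sets. Zeb2 was nearest to Runx1t1, Dkk3, Speg, Lpar4 and Gpc6 (0.983 to 0.989 over 18 arrays, 0.61 to 0.77 over 15). Twist1 was near Zbtb20, Gpc6, B3gnt9 and Zfp503 (0.988 to 0.990 over 18 arrays, 0.58 to 0.73 over 15). Gpc6, a glypican of the cell surface, stood near both Zeb2 and Twist1. Between the members themselves r was 0.94 to 0.99 over 18 arrays and, leaving aside the Snai2 pair, 0.08 to 0.34 over 15.

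Of the family, Twist2 was the only paralogue named in the lists, and Snai1, Snai3 and Zeb1 were not analysed here, nor were the mesenchymal genes Vim, Fn1 and Cdh2. Twist2 averaged −0.38 ± 0.03 in mESCs (SD, n = 3) and 0.10 ± 0.24 in OE + EpEX clones (SD, n = 4), a log2 difference of 0.47 (95% interval −0.15 to 1.09, limma adjusted p = 0.394). Cdh1, the adhesion gene that these factors repress, averaged −8.74 ± 0.26 in MEFs (SD, n = 3) and from −0.08 (OSKM) to 0.42 (mESC) in the pluripotent groups. Against mESC Cdh1 differed by −0.30 in OE + EpEX (95% interval −0.63 to 0.03, limma adjusted p = 0.288). In KE + EpEX the difference was −0.40 (−0.73 to −0.07, limma adjusted p = 0.124). In OSKM it was −0.50 (−0.83 to −0.17, limma adjusted p = 0.049), also under the fold threshold of a call. Epcam, which was also given as a transgene in both EpEX groups and not in OSKM, averaged −7.36 ± 0.30 in MEFs, −0.55 ± 0.18 in mESCs and 0.32 ± 0.19 in OE + EpEX clones. In OE + EpEX against mESC Epcam differed by 0.86 (95% interval 0.52 to 1.20, limma adjusted p = 0.00252), in KE + EpEX by 0.58 (0.24 to 0.92, limma adjusted p = 0.0285) and in OSKM by 0.54 (0.20 to 0.88, limma adjusted p = 0.0418), all under the fold threshold of a call. These 2 genes are in the list of transcripts higher than in MEFs, so their distance from MEFs is a description too.

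The wider pathway was read from lists of regulators of the epithelial-to-mesenchymal transition (6 of 30 genes named), of TGF-beta, BMP and Notch signalling (9 of 36), of mesenchymal genes (20 of 40) and of epithelial genes (11 of 41). Of these 46 genes, 1 was called higher and 0 lower in OE + EpEX against mESC (2.95% of all probe sets called) and in KE + EpEX against mESC (3.45%), namely Cldn4, which encodes a tight junction claudin. In OSKM against mESC (3.28%) 2 were called higher, Cldn4 and Id3, and 1 lower, Dsp. A gene counted if any of its probe sets was called (75 probe sets for the 46 genes), whereas the shares are of probe sets. Counts of genes and these shares are thus in unlike units. By probe set, 1 of 75 was called in each EpEX group and 3 of 75 in OSKM against mESC, near the shares over the array. The lists were not tested as sets. Id3 encodes an inhibitor of helix-loop-helix factors that BMP signals induce, and Dsp encodes desmoplakin of the desmosome. In the other 3 comparisons 0 of 46 were called by limma. Cldn4 was higher than in mESCs by 1.78 ± 0.29 in OE + EpEX (SE, limma adjusted p = 0.000943), by 1.59 ± 0.29 in KE + EpEX (limma adjusted p = 0.0020) and by 1.47 ± 0.29 in OSKM. The log2 difference of Id3 in OSKM against mESC was 1.79 and that of Dsp −1.73.

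With the 15 pluripotent arrays in the fit, more of these genes were called. They were 3 in OE + EpEX against mESC (Cldn4, Id3 and the collagen gene Col5a2, all higher), 3 in KE + EpEX (Cldn4 and Col5a2 higher, Pdgfra lower) and 7 in OSKM (Cldn4, Id3, Col5a2 and Postn higher, Dsp, Pdgfra and Vcan lower). Over all probe sets this fit called 3.43%, 3.89% and 3.73% in the same order. Pdgfra was also called higher in OE + EpEX than in OSKM, where 0.0977% of all probe sets were called. With all arrays but 1 in the fit, the 3 calls in OSKM against mESC became 8 without MEF sample 1, 2 without mESC clone 1 and 1 without mESC clone 3. Of all 45037 probe sets, 829 were called higher and 863 lower in that comparison without MEF sample 1. Without mESC clone 1 these numbers were 587 and 571, and without mESC clone 3 they were 552 and 637. The regulators of the transition itself had 0 calls of 6 genes in all 6 comparisons under both fits. The median log2 difference in OE + EpEX against mESC was 0.94 for the mesenchymal probe sets and 0.39 for the regulators, beside 0.19 for the 4 members and −0.05 for all probe sets. Of the 33 mesenchymal probe sets 17 are the fibroblast markers themselves, so the mesenchymal median and the marker mean (0.30 in OE + EpEX and −0.52 in mESCs) overlap in what they measure, and the other 16 had a median difference of 0.78.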

How the data were processed

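Members and gene lists were chosen with earlier results of these data known. The authors deposited log2 values, made with GeneSpring GX from Affymetrix mouse arrays and shifted per probe set to a median of 0. The submitters' processing notes also name RMA and MAS5, with no role, and neither versions nor the normalization between arrays is given in the sources used here. The authors' lists also hold linear fold changes against the MEF mean, which were not used. The labels name Trizol and biotin, the methods RNeasy and Cy3. Control probe sets (64 of 45101) were left out. All 18 arrays entered 1 limma model (3.58.1, R 4.3.3; lmFit and eBayes, 1 mean per group), checked on simulated data, and Benjamini-Hochberg adjustment was made within each comparison over 45037 probe sets. Relations between probe sets and markers were tested with 100000 permutations (scipy 1.17.1). Named were all member probe sets, their paralogues, Cdh1, Epcam, every pathway gene called in the main comparisons and, per member, the 5 genes most alike, of which 1 is not reported here. Pathway genes called only without the MEFs were named after their values were seen. Symbols came from the authors' lists, and 3 of 3 members are current RefSeq symbols. Depth does not apply to arrays, and their number, 3 or 4 per group, limits the precision. Alternatives covered thresholds, normalization, the arrays in the fit, the methods' t-test, the replicate number and left-out arrays.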

Additional observations from a re-analysis of the deposited data

Results flagged for a closer look

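Among 33 sets of 4 clones (members, named genes and the fibroblast marker mean), 1 held a clone far from the other 3, where chance gives about 1.65. Cdh1 was −0.42 in KE + EpEX clone 4 and 0.10 to 0.19 in the other 3 KE + EpEX clones. For Snai2, Zeb2 and Twist1 no clone was set apart by this measure in any of the 3 iPSC groups.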

How the results depend on the processing

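The 24 member differences were recomputed under 1128 alternatives in all. In 1082 of them the direction and the call were kept, in 11 a call was gained and in 35 the direction turned. Many alternatives could not turn the direction, since they leave the difference itself unchanged. Among these are other thresholds, the t-test and arrays left out of groups not compared. The count of 1082 is therefore no measure of stability. The calls gained were those of Snai2 1447643_x_at. The count of members called in OE + EpEX against mESC was 1 with the 15 arrays without MEFs (3.43% of all probe sets called). It was also 1 with only the compared groups (3.47%) and with the methods' t-test unadjusted (22.6%). When single arrays were left out it was 0 to 1. In KE + EpEX against mESC it was 0 to 1 when single arrays were left out (1 without KE + EpEX clone 3 in the fit without MEFs). In OE + EpEX against OSKM it was 1 with the unadjusted t-test (18.3%). The adjusted p of Snai2 1447643_x_at in OE + EpEX against mESC ran from 0.0135 to 0.567. The median difference from MEFs moved with quantile normalization, which gives every array 1 common distribution of these relative values, to −1.72 in mESC, −2.07 in OSKM, −1.49 in OE + EpEX and −1.62 in KE + EpEX.

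Directions turned in 8 of the 24 differences, whose reported sizes went up to 0.51, with adjusted p of 0.581 or more after the turn. Without the 3 clones highest in fibroblast markers, Snai2 1418673_at in OE + EpEX against KE + EpEX became 0.043, Snai2 1447643_x_at in KE + EpEX against OSKM −0.054, Twist1 in OE + EpEX against mESC −0.097 and Zeb2 in KE + EpEX against OSKM −0.035. With quantile normalization Snai2 1418673_at in OSKM against mESC became −0.062. With single arrays left out, Snai2 1418673_at ranged over −0.13 to 0.080 in OE + EpEX against KE + EpEX and over −0.050 to 0.12 in OSKM against mESC, Snai2 1447643_x_at over −0.11 to 0.47 in OE + EpEX against KE + EpEX, Twist1 over −0.25 to 0.0036 in KE + EpEX against OSKM and −0.24 to 0.23 in OE + EpEX against mESC, and Zeb2 over −0.31 to 0.14 in KE + EpEX against mESC. The cause was not tested.

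The count of pathway genes called moved more, against main counts of 1, 1 and 3 in OE + EpEX, KE + EpEX and OSKM against mESC and 0 elsewhere. Without MEFs in the fit it was 3, 3 and 7, and 1 in OE + EpEX against OSKM. Without the 3 clones highest in fibroblast markers it was 5, 2 and 8, and 1, 2 and 3 in OE + EpEX against OSKM, KE + EpEX against OSKM and OE + EpEX against KE + EpEX; in the fit without MEFs as well it was 11, 2 and 11, and 1, 4 and 6. With only the compared groups it was 10 in OE + EpEX and 11 in OSKM against mESC and 3 in OE + EpEX against OSKM. In that setting 3.47%, 3.92% and 0.233% of all probe sets were called in the same order. The methods' t-test gave 22, 8 and 33 unadjusted and 7, 2 and 24 adjusted, and unadjusted 15 in OE + EpEX and 2 in KE + EpEX against OSKM. Over all probe sets the t-test passed 22.6%, 20.6% and 31.1% unadjusted and 4.16%, 4.47% and 19.0% adjusted in the comparisons with mESC. Against OSKM it passed 18.3% in OE + EpEX and 11.1% in KE + EpEX unadjusted. No fold threshold gave 3, 3 and 6, and a 1.5-fold threshold gave 3 in OE + EpEX. The probe sets with the larger spread gave 3 in OE + EpEX and 6 in OSKM, and quantile normalization 2 and 6, with 7 in OE + EpEX and 4 in KE + EpEX against OSKM. After quantile normalization 3.97% and 6.73% of all probe sets were called against mESC in that order, and 3.38% and 1.85% against OSKM. With single arrays left out it was 1 to 9, 1 to 11 and 1 to 9 against mESC and 0 to 2 in both comparisons with OSKM. Counts with no share over all probe sets, here or above, cannot be read as results about these genes.

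Replicate numbers did not pair the samples, as 3 of 33 same-number correlations of deviations from group means were over 0.1 (−0.362 to 0.254). The replicate block gave 0 members called in every comparison and 1, 1 and 3 pathway genes against mESC. Signal over background is unknown in these centred values, so the residual signal in pluripotent arrays could not be set against detection. The fit without MEFs with single arrays left out, and the fits without the 3 clones, were added after the data had been seen.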
